A study of Mus musculus with 12 samples.

Results

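The genes described here encode the protein subunits of respiratory complexes I, III, IV and V. They are the protein-coding genes named Nduf (a, b, c, s or v, with a number) or Ndufab1, Uqcr or Cyc1, Cox4 to Cox8, Atp5, and mt-. The rule found 96 gene IDs of 55487, which is 95 symbols because Atp5o has 2 IDs. Of these, 83 are nuclear genes (37 in complex I, 9 in III, 19 in IV and 18 in V) and 13 are genes of the mitochondrial genome (7, 1, 3 and 2). Ndufa4 stands with complex I by its name, although the protein is known as a subunit of complex IV. Cox5b-ps is a Cox5b-like copy that the deposited table types as protein-coding.

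The study sequenced RNA of BV2, an immortalized mouse microglial cell line, in 4 groups of 3 libraries each. The groups were normal glucose (NG), normal glucose with CD200Fc (NG+CD200Fc), high glucose (HG) and high glucose with CD200Fc (HG+CD200Fc). CD200Fc is the ligand CD200 joined to an antibody Fc part, and it engages the inhibitory receptor CD200R on microglia; the labels give a dose of 50 ng/mL. Glucose concentrations and exposure time are not stated in the labels. Sample source and cell line are given as BV2, whereas the treatment protocol also speaks of dissected retinas and sorted GFP-positive cells. BV2 is 1 line, and no label says whether replicates are separate cultures. The p-values therefore weigh differences against a spread among libraries that may be only technical.

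Complexes I, III and IV pass electrons from NADH through ubiquinone and cytochrome c to oxygen and pump protons across the inner mitochondrial membrane, and complex V, the ATP synthase, lets the protons flow back to make ATP. The catalytic cores of I, III and IV and the proton path of V hold subunits made inside the mitochondrion from its own circular genome, while all other subunits come from nuclear genes and are imported. Microglia make ATP both by this route and by glycolysis, and the balance is known to shift with their activation state.

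Nuclear respiratory genes are known for promoters that bind NRF1, the ETS factor GABP (NRF2) and YY1, so promoters are shown for 1 member of each complex that was lower in HG than in NG (the one with the smallest p among those with a match), beside Cox7a2l, one of the members that differed least. Each is the 250 bases before the start site (RefSeq, GRCm38.p6), on the minus strand and written 5′ to 3′. Capitals mark GCATGCGC, the inner part of the NRF1 site, and CCGGAAG, an ETS site (CTTCCGG where it lies on the other strand). The positions are chr2:36049339-36049588 for Ndufa8, chr4:116075071-116075320 for Uqcrh, chr7:30626115-30626364 for Cox6b1, chr9:44920743-44920992 for Atp5l and chr17:83514334-83514583 for Cox7a2l.
Ndufa8: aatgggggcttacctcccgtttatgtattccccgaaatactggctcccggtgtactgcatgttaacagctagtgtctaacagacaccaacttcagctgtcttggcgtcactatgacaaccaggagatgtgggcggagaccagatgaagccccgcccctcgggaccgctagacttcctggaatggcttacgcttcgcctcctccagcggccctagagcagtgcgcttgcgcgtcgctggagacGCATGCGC
Uqcrh: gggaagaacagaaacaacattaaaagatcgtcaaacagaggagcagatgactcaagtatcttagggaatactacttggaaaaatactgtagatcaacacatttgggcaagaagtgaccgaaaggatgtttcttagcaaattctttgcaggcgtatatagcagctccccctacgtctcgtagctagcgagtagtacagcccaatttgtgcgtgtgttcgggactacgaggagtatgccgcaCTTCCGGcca
Cox6b1: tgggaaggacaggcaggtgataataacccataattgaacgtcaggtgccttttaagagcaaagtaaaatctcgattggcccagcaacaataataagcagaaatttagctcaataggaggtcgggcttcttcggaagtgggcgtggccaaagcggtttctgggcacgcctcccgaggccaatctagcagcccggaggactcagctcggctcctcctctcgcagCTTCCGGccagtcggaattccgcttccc
Atp5l: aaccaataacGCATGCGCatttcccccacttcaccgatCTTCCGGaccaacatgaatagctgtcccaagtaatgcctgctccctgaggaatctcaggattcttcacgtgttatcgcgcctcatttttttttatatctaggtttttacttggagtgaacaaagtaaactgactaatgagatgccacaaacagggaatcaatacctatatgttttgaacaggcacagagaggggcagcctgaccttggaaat
Cox7a2l: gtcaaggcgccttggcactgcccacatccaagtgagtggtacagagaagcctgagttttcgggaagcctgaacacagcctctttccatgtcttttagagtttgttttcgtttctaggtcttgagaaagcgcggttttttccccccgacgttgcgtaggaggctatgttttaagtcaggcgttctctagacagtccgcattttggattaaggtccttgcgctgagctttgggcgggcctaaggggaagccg

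In Ndufa8 the NRF1 core match began 8 bases before the start site, and in Uqcrh the ETS match began 10 bases before it. Cox6b1 had an ETS match at 28 bases. Atp5l had both, an NRF1 core at 240 bases and an ETS match at 212 bases. Cox7a2l had neither.

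Promoters of 66 of the 83 nuclear members could be matched by symbol or synonym to the RefSeq table, and motifs were sought on both strands of the 300 bases from 250 before to 50 after the start. The NRF1 core GCATGCGC was present in 9 members, 13.6%, against 3.05% of all 27025 genes with a promoter and 6.83% of the 7119 genes that averaged 10 CPM or more (counts scaled to library size). The full palindromic NRF1 site, which contains the core, was present in 7.58% of members against 1.07% and 2.67%. YY1 (AAGATGGCG) matched 10.6% of members, against 1.64% of all genes and 4.33% of those of at least 10 CPM. The ETS site matched 22.7% of members, close to the 23.4% of genes of at least 10 CPM and above the 9.93% of all genes. Matched members with the NRF1 core had a median log2 fold change of -0.34 in HG against NG and those without it -0.27, but the order was the other way for the 5 with the full site (-0.23 with it and -0.28 without). For the core in HG+CD200Fc against NG+CD200Fc the medians were -0.27 with it and -0.28 without, so no steady difference was seen. A match describes letters in a window and shows no binding.

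Levels per kilobase of exon set the scale of the members. The highest were mitochondrial transcripts: mt-Co1, the catalytic subunit of complex IV, at 3359 CPM per kb, mt-Cytb, the cytochrome b of complex III, at 2052, and mt-Nd1, a membrane subunit of complex I, at 1406. Nuclear members that could be tested ranged from 0.859 CPM per kb for Ndufb2 to 356 for Cox6a1. Tissue isoforms of complex IV were near the bottom of this range: Cox6a2 at 3.54, Cox7a1 at 2.87 and Cox7b2 at 1.79 CPM per kb. Cox4i2, Cox6b2, Cox8b and the second Atp5o ID were too low to test, and Cox8c had a count of 0 in every library.

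The 12 libraries held 21454087 to 31905649 counts in genes. HG replicate 2 stood apart: ribosomal RNA genes took 1.53% of it and 0.0554% to 0.122% of the other libraries. All 10 microglia and macrophage markers were detected, and their summed level was 3589 to 4273 CPM, lowest in the HG+CD200Fc group. Of these 10, 5 were higher and 2 lower in HG than in NG, and 6 were lower in HG+CD200Fc than in HG. The 5 endothelial markers summed to 8.98 to 9.91 CPM in NG, 10.4 to 11.3 in NG+CD200Fc, 12.3 to 13.3 in HG and 9.49 to 10.9 in HG+CD200Fc, so that HG lay above every other group. The 5 neuronal markers also lay higher in HG (2.52 to 2.63 CPM) than in NG (1.84 to 2.32), and were at 1.84 to 2.62 in NG+CD200Fc and 2.54 to 3.91 in HG+CD200Fc. The 6 photoreceptor markers, nearly all of them Pde6b (mean 34.0 ± 3.84 CPM in NG, SD, n = 3), summed to 34.2 to 41.0 CPM in NG, 30.4 to 38.2 in NG+CD200Fc, 29.7 to 34.3 in HG and 38.2 to 41.8 in HG+CD200Fc, the last without overlap with HG. The 3 retinal pigment epithelium markers, with Tyr at 0 throughout, summed to 7.73 to 8.18 CPM in HG and 5.89 to 6.97 in HG+CD200Fc, again without overlap, against 6.38 to 7.80 in NG and 6.20 to 7.46 in NG+CD200Fc. The 5 Müller glia and astrocyte markers, mostly Glul (mean 153 ± 2.12 CPM in NG, SD, n = 3), did not overlap between HG (148 to 167 CPM) and HG+CD200Fc (141 to 147), and were at 152 to 156 in NG and 147 to 152 in NG+CD200Fc. The 3 lymphocyte markers reached at most 1.87 CPM and the 4 fibroblast and mural markers 1.33 CPM in any library. The nuclear noncoding RNA Malat1 was higher in HG than in NG (log2 fold change 0.83, adjusted p = 3.35e-11, edgeR quasi-likelihood test). The part of these differences in the results below was not tested.

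The first comparison asked how high glucose alone changed the respiratory chain genes. In HG, 45 of the 91 members that could be tested were lower than in NG and 1, Cox6a2, was higher (edgeR quasi-likelihood test, Benjamini-Hochberg adjusted p under 0.05 over 19182 genes). Of all genes tested 24.6% passed in this comparison, 12.9% lower and 11.7% higher, or 2476 and 2244 genes. Of the 9079 genes averaging 10 CPM or more, 2225 were lower and 1391 higher, and shares by exon length are given below. The median log2 fold change was -0.27 over the 78 nuclear members and -0.15 over the 13 mitochondrial ones, against 0.021 over all genes tested and -0.055 over the 9079 genes averaging 10 CPM or more. The 3 HG libraries all lay below the 3 NG libraries for 50 members, where 19.8% of all genes did so, and above them for 2 members, where 19.9% did. In bulk libraries, fewer cells of a type and less RNA per cell cannot be told apart, and CPM are shares of a library, not amounts per cell.

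**Figure D1:**
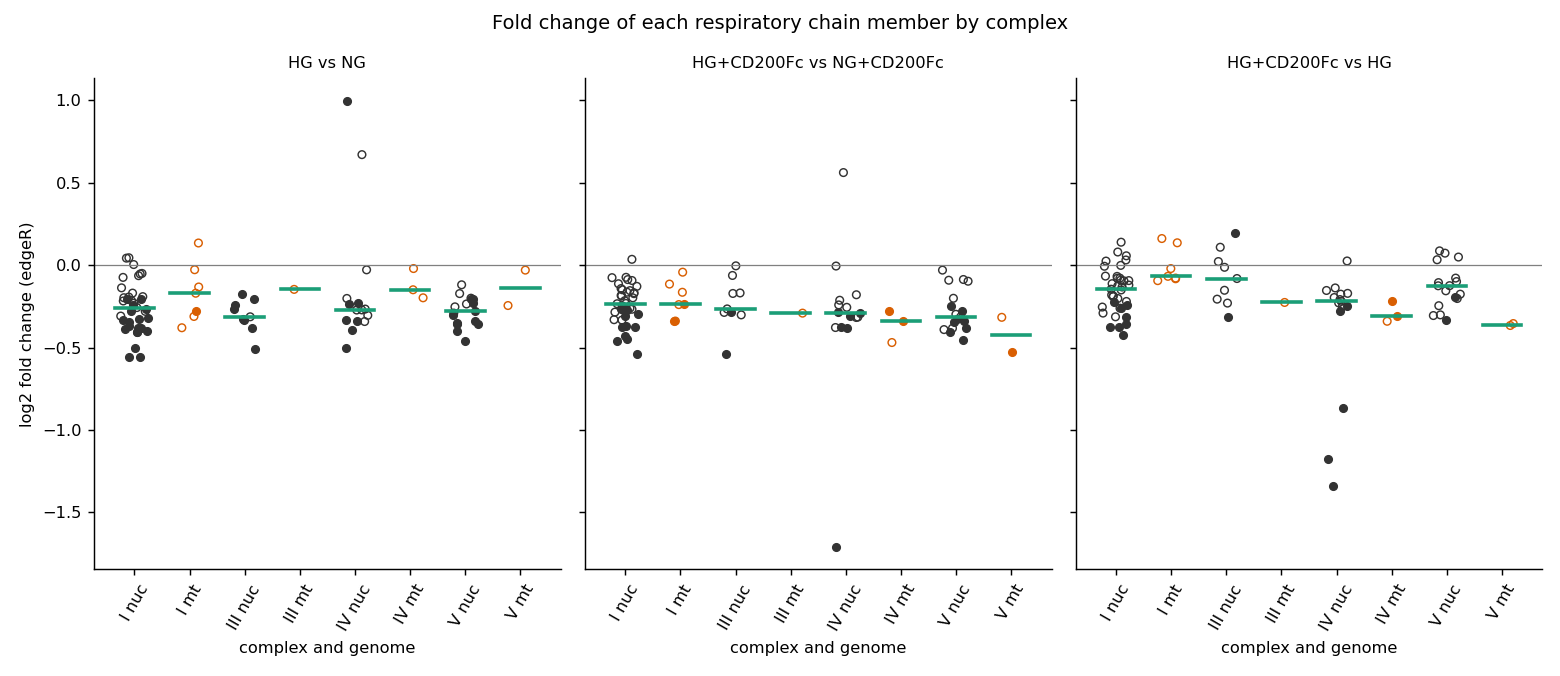
Log2 fold change (vertical axis) of each tested member, by complex and by nuclear (nuc, black) or mitochondrial (mt, orange) gene (horizontal axis), for glucose alone (left), glucose with CD200Fc (middle) and CD200Fc at high glucose (right); each point is 1 gene, filled where its adjusted p was under 0.05, and green lines are medians. Nuclear medians of the complexes lie from -0.31 to -0.26 in HG vs NG, and Cox6a2 (1.00) is the single filled point above 0 there.

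Complex I takes electrons from NADH. In HG against NG, 19 of its 37 nuclear subunits fell, with a median of -0.26. Accessory subunits, which surround the core and are needed for its assembly and stability, fell in 16 of 30 cases with a median of -0.27. Of the 7 nuclear core subunits that carry the flavin and iron-sulfur centres, 3 fell (Ndufv2, Ndufs7 and Ndufs8) and the median was -0.14.

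Ndufa8 (chr2:36036326-36049406, minus strand, GRCm38), an accessory subunit with disulfide-bonded CHCH folds on the intermembrane side, had 112, 91.6 and 101 CPM in NG replicates 1 to 3 and 79.8, 67.7 and 67.5 CPM in HG. All 3 HG libraries were below all 3 NG libraries, and HG replicate 1 was the highest of the 3. The log2 fold change was -0.50 ± 0.079 (SE), with adjusted p = 5.18e-05.

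The largest falls in complex I were in the small membrane-arm subunits Ndufb2 (-0.56, adjusted p = 0.0273) and Ndufb4 (-0.56, adjusted p = 0.00172). Ndufb4 had 25.1, 23.5 and 24.9 CPM in NG and 20.7, 14.0 and 15.2 CPM in HG, without overlap. Ndufa12 (-0.40, adjusted p = 7.28e-04) and Ndufb11 (-0.40, adjusted p = 0.00478) fell too. At the other end stood subunits of the electron-input arm. Ndufs1, the largest iron-sulfur subunit, had 112, 109 and 109.6 CPM in NG and 110.1, 109.8 and 112 in HG, which overlapped, and its log2 fold change was 0.0039 ± 0.055 (SE). Ndufv1, which binds NADH and the flavin, and its neighbour Ndufv3 did not pass the test either (0.043 and 0.045), in contrast to their partner Ndufv2, which fell by 0.38 on the log2 scale (adjusted p = 0.00165). These flat members have values within the spread between libraries, and the difference between members was not itself tested. The flat Ndufs1, Ndufv3 and Ndufv1 have 8086, 3189 and 2634 bases of exon. Of those that fell, Ndufv2, Ndufb4, Ndufa12, Ndufb11 and Ndufa8 have 2147, 1916, 1569, 908 and 861, but Ndufb2 has 5628. The part of exon length in this contrast was not tested.

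Complex III hands electrons from ubiquinol to cytochrome c. Of its 9 nuclear members, 8 fell in HG against NG, with a median of -0.31; Uqcrq had -0.31 and did not pass. Cyc1, the cytochrome c1 of the core, had 390.1, 364 and 391 CPM in NG and 340.4, 266 and 306 CPM in HG. The groups did not overlap, and the log2 fold change was -0.33 ± 0.065 (SE, adjusted p = 4.32e-04). The Rieske iron-sulfur protein Uqcrfs1 changed by a like amount, -0.33 ± 0.069 (SE, adjusted p = 7.16e-04). The largest fall in the complex was in Uqcr11, its smallest subunit, at -0.51 (adjusted p = 0.0468), Uqcr10 fell too (-0.38, adjusted p = 0.00635), and the smallest among those that passed was in Uqcrc2, a processing-peptidase-like core protein, at -0.17 (adjusted p = 0.0427).

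Complex IV reduces oxygen. Of its 12 tested nuclear members other than the tissue isoforms, 6 fell: Cox5a, Cox5b-ps, Cox6a1, Cox6b1, Cox7a2 and Cox7c. Cox5b itself, with a mean of 183 CPM in NG against 27.2 for the copy Cox5b-ps, had -0.27 and did not pass (edgeR quasi-likelihood test, adjusted p = 0.147). Cox7c, a small membrane subunit, fell most; it had 84.5, 73.9 and 79.8 CPM in NG and 67.4, 48.4 and 51.9 CPM in HG, with HG replicate 1 far above the other HG libraries and close to the NG range. Its log2 fold change was -0.50 ± 0.11 (SE, adjusted p = 0.00292). Cox4i1, the largest nuclear subunit, had -0.27 and did not pass (adjusted p = 0.0736), nor did Cox8a (-0.30, adjusted p = 0.0765) or Cox7a2l, which helps to join complexes III and IV into supercomplexes (-0.028, adjusted p = 0.837).

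Complex V turns the proton flow into ATP. Of its 17 tested nuclear members 11 fell, and all 17 had negative values, with a median of -0.28. The 3 genes of the subunit c ring, Atp5g1, Atp5g2 and Atp5g3, which encode the same mature protein, all fell (-0.36, -0.35 and -0.28). Of the 5 F1 head and central stalk genes 3 fell, among them the catalytic Atp5b, the most abundant nuclear member in CPM, with 1220.2, 1149 and 1192 CPM in NG and 1114, 950.5 and 1029 in HG. These groups did not overlap, and the log2 fold change was -0.20 ± 0.054 (SE, adjusted p = 0.00667). Of the 5 small membrane subunits 4 fell, led by Atp5j2 (-0.46, adjusted p = 0.00112), whereas 1 of 4 peripheral stalk genes did (Atp5pb, -0.20). The values nearest to 0 among its nuclear members were those of Atp5d, a central stalk subunit (-0.12), Atp5j of the peripheral stalk (-0.17) and the small subunit Atp5md (-0.20), with adjusted p from 0.0878 to 0.244, none of which passed. The inhibitory factor Atpif1, no member by the rule, had a log2 fold change of -0.18 (adjusted p = 0.114).

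Most respiratory subunits are short transcripts, and values in these libraries moved with exon length. The tested nuclear members had a median exon length of 1578 bases, against 3067 for all tested genes. Among genes averaging 10 CPM or more with at most 1000 bases of exon, the median log2 fold change in HG against NG was -0.33 for the 18 nuclear members and -0.31 for the 328 other genes. From 1000 to 2000 bases it was -0.27 for 29 members and -0.20 for 791 others. From 2000 to 4000 bases it was -0.20 for 18 members and -0.10 for 2480 others, and above 4000 bases -0.20 for 9 members and -0.0020 for 5394 others. In these 4 classes, from the shortest up, 14 of 18, 14 of 29, 9 of 18 and 6 of 9 nuclear members passed as lower in HG. Of the other genes in the same classes, 44.21%, 39.95%, 30.12% and 18.04% passed as lower. Whether these shares differ was not tested. By median, short members thus lay where other short genes lay. The longer members lay lower than other genes of their length in this description.

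**Figure D2:**
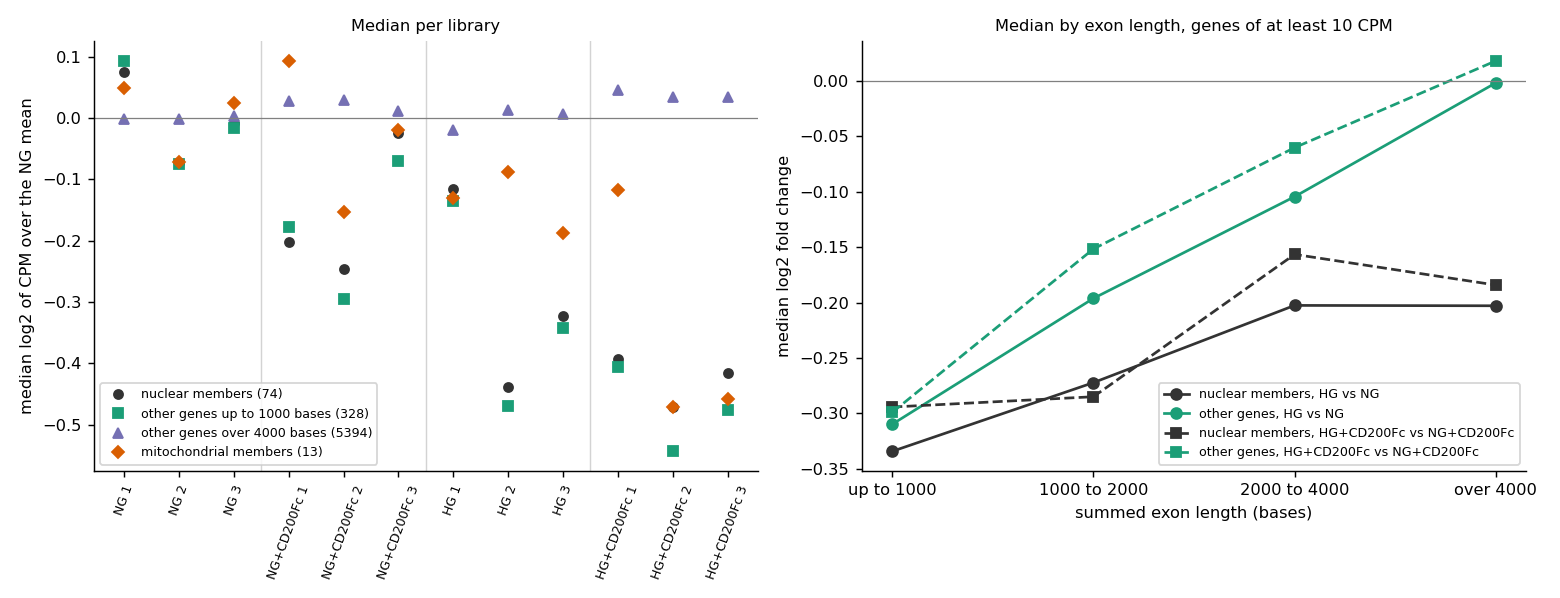
Left, the median log2 of CPM over the NG mean (vertical axis) in each library (horizontal axis) for 74 nuclear members of at least 10 CPM, 13 mitochondrial members, 328 other genes of up to 1000 bases of exon and 5394 other genes of over 4000 bases. Right, the median log2 fold change (vertical axis) by summed exon length in bases (horizontal axis) for nuclear members (black) and other genes (green) in HG vs NG (solid) and HG+CD200Fc vs NG+CD200Fc (dashed); members and other genes meet in the shortest class, at -0.33 and -0.31 in HG vs NG, and stand apart above 4000 bases, at -0.20 and -0.0020.

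The same course was seen library by library. Relative to the NG mean, the median over nuclear members of at least 10 CPM was -0.12, -0.44 and -0.32 (log2) in HG replicates 1 to 3, and over the other genes of up to 1000 bases it was -0.14, -0.47 and -0.34. Genes above 4000 bases were at -0.019, 0.014 and 0.0068. Where a trend on exon length and GC content, fitted over genes of at least 10 CPM, was taken out of the counts, 33 members passed in HG against NG (24 lower and 9 higher) and the nuclear median was -0.10; where it was fitted over genes of at least 1 CPM, 50 passed and the median was -0.27. The first of these trends brought the 328 other genes of up to 1000 bases from -0.31 to -0.033, whereas the second left them at -0.22 and so removed little of the relation to length. Of the 46 calls, 24 were kept under both. Members still lower with the trend of genes of at least 10 CPM removed included Ndufa8 (-0.30), Ndufb4 (-0.44), Cyc1 (-0.27), Uqcr11 (-0.30) and Uqcrc1 (-0.23). Those that passed as higher with it removed included Cox6a2 (1.26), Cox7a1 (0.91), Ndufb3 (0.28) and Cox7a2l (0.18). Among them were also the mitochondrial mt-Nd6 (0.54), mt-Atp8 (0.48), mt-Co1 (0.25) and mt-Co2 (0.23). The median over all genes was then 0.087. Over all 24 alternative settings 18 of the 46 calls were never lost: Ndufa8, Ndufa10, Ndufa12, Ndufb4, Ndufs7, Ndufs8, Ndufv2, Cyc1, Cox6a2, Atp5a1, Atp5b, Atp5c1, Atp5g1, Atp5g2, Atp5g3, Atp5j2, Atp5l and Atp5mpl. Without HG replicate 2, the library with more ribosomal RNA, 28 members passed, without NG replicate 1 29, and without HG replicate 3 30.

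The 13 mitochondrial genes lie on one small circle and are read as long transcripts that are cut into single messages. Their summed level was 13009, 12095 and 12909 CPM in NG and 11936, 12621 and 11187 CPM in HG. The groups overlapped, and the ratio of means was 0.940. The nuclear members summed to 10171, 9261 and 9646 CPM in NG and 9075, 7323 and 8012 CPM in HG, without overlap and with a ratio of 0.839. The mitochondrial sum divided by the nuclear sum was 1.28, 1.31 and 1.34 in NG and 1.32, 1.72 and 1.40 in HG; HG replicate 2 stood highest and HG replicate 1 lay within the NG range.

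**Figure D3:**
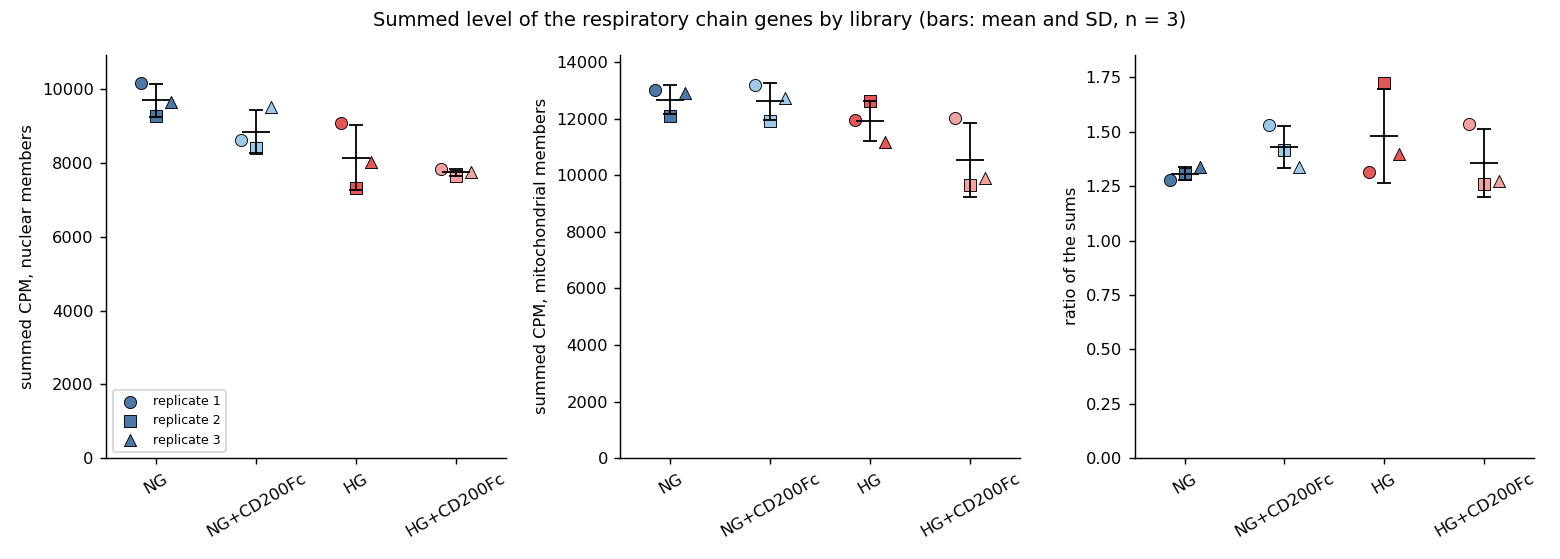
Summed CPM (vertical axes) of nuclear members (left) and of mitochondrial members (middle), and the mitochondrial sum over the nuclear sum (right), by group (horizontal axes); each point is 1 library, and bars are the mean and SD of 3. The nuclear sum is 9261 to 10171 CPM in NG and 7323 to 9075 CPM in HG, and the mitochondrial sum of HG+CD200Fc replicate 1 (12032 CPM) lies above the other 2 of its group (9653 and 9891 CPM).

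Of the single mitochondrial genes, only mt-Nd1 (chrM:2751-3707) passed in HG against NG. It had 1548, 1398 and 1538 CPM in NG and 1254, 1284 and 1153 CPM in HG, without overlap, and its log2 fold change was -0.28 ± 0.093 (SE, adjusted p = 0.0409). This call was lost under 9 of 24 alternative settings, among them every HG library left out. With the trend of genes of at least 10 CPM removed the value was 0.061, where the median over all genes was 0.087. The most abundant, mt-Co1 (chrM:5328-6872), had 5727, 5258 and 5631 CPM in NG and 5515, 5764 and 5104 CPM in HG, which overlapped (-0.02 ± 0.076, SE). mt-Nd5, a proton-pumping subunit of complex I, was as flat (-0.027), mt-Nd2, another, had -0.17 (adjusted p = 0.510), and mt-Nd6, the single protein gene on the other strand, had 0.13 (adjusted p = 0.531). mt-Cytb had -0.15 and mt-Atp6, the proton channel subunit of complex V, -0.24, neither of which passed.

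Some mitochondrial values depend on where reads were placed. In mt-Nd3, mt-Nd4l, mt-Co2, mt-Co3 and mt-Atp6, 97.6% to 99.9% of 100-base stretches occur also in nuclear copies on chr1 (24611535 to 24616197) or chr2 (22587291 to 22590533). In mt-Co1 the share was 30.8% and in mt-Nd4 60.8%, and in mt-Nd1, mt-Nd5, mt-Nd6, mt-Cytb and mt-Atp8 it was 0%. The copies held 61.7% of the summed CPM of mt-Co2 and its copies and 67.6% for mt-Nd3, so the levels of these genes are uncertain. Without strand information, reads from a gene and its antisense partner also cannot be told apart; 40 members share exon bases with another gene, 30 of them with one on the other strand.

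**Figure D4:**
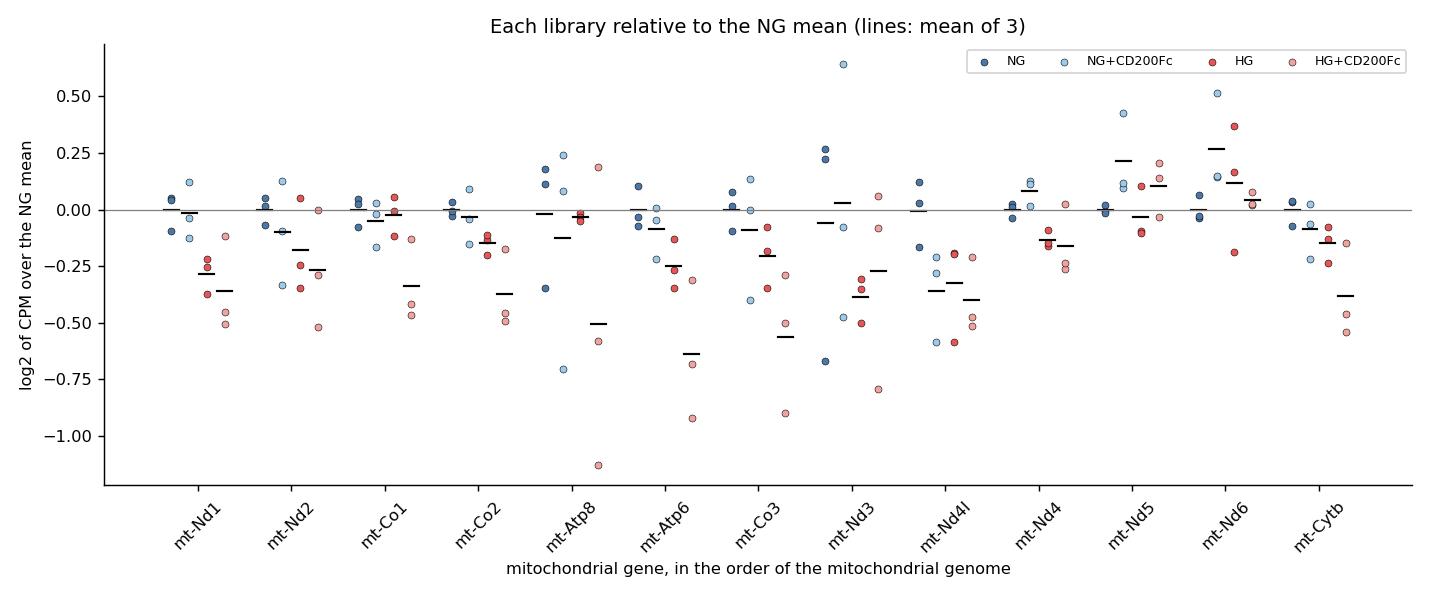
Log2 of each library's CPM over the NG mean (vertical axis) for the 13 mitochondrial protein genes in the order of their genome (horizontal axis); each point is 1 library, coloured by group, and lines are means of 3. The 3 HG libraries of mt-Nd1 (1153 to 1284 CPM) lie below the 3 NG libraries (1398 to 1548 CPM), and mt-Nd3 and mt-Atp8 scatter most.

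The second comparison asked what CD200Fc did at normal glucose. No member passed the edgeR quasi-likelihood test, as no gene did (0% of 19182); at an unadjusted p under 0.05 there were 23 members and 1147 genes, DESeq2 called 0 members and limma voom with quality weights 1. Values leaned downward: 83 of 91 members were negative, with a median of -0.16 for nuclear and -0.049 for mitochondrial members. The 3 NG+CD200Fc libraries all lay below NG for 19 members, against 6.16% of all genes, and above for 2, against 5.71%. Other genes of up to 1000 bases had a median of -0.17, and nuclear members of that length -0.19. The smallest p among members were those of Ndufa12 (-0.26), Ndufb11 (-0.31), Ndufb2 (-0.60), Cox5a (-0.20) and Atp5k (-0.39), each with adjusted p = 0.816. The 2 members above were mt-Nd5 and mt-Nd6: mt-Nd5 had 1499, 1487 and 1527 CPM in NG and 1609, 1634 and 2025 CPM in NG+CD200Fc (0.22 ± 0.084, SE, adjusted p = 0.816).

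The third comparison was glucose in the presence of CD200Fc. In HG+CD200Fc, 33 members were lower than in NG+CD200Fc and 0 were higher, where 8.30% of all genes passed (3.65% lower and 4.65% higher, or 701 and 892 genes, and 494 and 1115 with upper quartile scaling). Of these members 28 were nuclear and 5 mitochondrial, with medians of -0.27 and -0.29. All 3 libraries were below for 60 members, against 14.2% of genes. Other genes of up to 1000 bases had a median of -0.30, and members of that length -0.29. Among genes of at least 10 CPM, 23.2% of other genes of up to 1000 bases were lower, and 9 of 18 nuclear members. From 1000 to 2000 bases it was 17.7% and 10 of 29, from 2000 to 4000 bases 7.26% and 4 of 18, and above 4000 bases 3.82% and 4 of 9. With the trend of genes of at least 10 CPM removed, 8 members passed (7 lower and 1 higher), and 0 of the 33 calls held in all alternative settings; without NG+CD200Fc replicate 3 or HG+CD200Fc replicate 2 there were 5 calls in each case, without HG+CD200Fc replicate 3 12 and without NG+CD200Fc replicate 1 17.

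By complex, 12 of 37 nuclear members of complex I, 2 of 9 of complex III, 6 of 15 of complex IV and 8 of 17 of complex V were lower. Ndufv2, an iron-sulfur subunit of the electron-input arm, had 79.1, 73.4 and 90.9 CPM in NG+CD200Fc and 59.6, 59.3 and 62.3 CPM in HG+CD200Fc, without overlap (-0.43 ± 0.084, SE, adjusted p = 0.00450). Uqcrb, which lies near the ubiquinone site of complex III, had 35.4, 35.7 and 40.6 CPM and 27.7, 22.7 and 26.4 CPM, also without overlap (-0.54 ± 0.09, SE, adjusted p = 0.00147), whereas Cyc1, which fell with glucose alone, had -0.062 (adjusted p = 0.611). In complex V the central stalk gene Atp5c1 fell (-0.33, adjusted p = 0.00393), as did Atp5pb of the peripheral stalk (-0.34, adjusted p = 0.00260). The largest change of any member in this comparison was in Cox7b2, an isoform of a complex IV subunit with low counts, at -1.71 ± 0.41 (SE, adjusted p = 0.0106). The 5 mitochondrial genes that passed were mt-Nd1 (-0.34), mt-Nd4 (-0.24), mt-Co1 (-0.28), mt-Co2 (-0.34) and mt-Atp6 (-0.53), with adjusted p from 0.00572 for mt-Co2 to 0.0412 for mt-Nd1. The values of mt-Nd1, mt-Nd4, mt-Co1 and mt-Co2 turned positive, at 0.075, 0.16, 0.063 and 0.095, with the trend of genes of at least 10 CPM removed, so their direction depends on that choice.

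The mitochondrial sum was 13184, 11907 and 12722 CPM in NG+CD200Fc and 12032, 9653 and 9891 CPM in HG+CD200Fc, a ratio of 0.835. HG+CD200Fc replicate 1 lay within the NG+CD200Fc range and the other 2 below it. The nuclear ratio was 0.876, with 8618, 8406 and 9513 CPM against 7833, 7649.9 and 7765 CPM and no overlap. By complex, the nuclear ratios were 0.866, 0.908, 0.837 and 0.891 for I, III, IV and V, and the mitochondrial ones 0.863, 0.817, 0.822 and 0.701.

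The fourth comparison asked what CD200Fc did at high glucose. It shares the HG libraries with the first comparison, and the values are given side by side. In HG+CD200Fc, 18 members were lower than in HG and 1 was higher, where 17.8% of all genes passed (8.30% lower and 9.46% higher); 22 members had all 3 libraries below, against 16.0% of genes, and 1 above, against 15.3%. The nuclear median was -0.16 and the mitochondrial -0.094. Members of up to 1000 bases had a median of -0.20 and other genes of that length -0.15. Of the 45 members lower in HG than in NG, Cyc1 was higher in HG+CD200Fc than in HG (0.20 ± 0.065, SE, adjusted p = 0.0321): it had 340.4, 266 and 306 CPM in HG and 336, 353 and 358 CPM in HG+CD200Fc, and the groups overlapped. This call was lost in 8 of 24 alternative settings, among them HG replicate 2 or 3 or HG+CD200Fc replicate 2 or 3 left out.

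Lower members included Ndufb3 (-0.37, adjusted p = 0.00518), Ndufs4 (-0.32, adjusted p = 0.00703) and Ndufv3 (-0.38, adjusted p = 0.00132) of complex I, Atp5k of complex V (-0.33, adjusted p = 0.00639) and the supercomplex factor Cox7a2l (-0.28, adjusted p = 0.0168). Ndufv3 had 39.0, 36.5 and 34.9 CPM in HG and 30.4, 28.0 and 26.6 CPM in HG+CD200Fc, without overlap. Ndufv3 and Cox6a2 held in all alternative settings, and these 2 were the only ones of the 19 to do so. Among mitochondrial genes mt-Co1 had 5515, 5764 and 5104 CPM in HG and 5067, 4013 and 4152 CPM in HG+CD200Fc, which did not overlap (-0.31 ± 0.076, SE, adjusted p = 0.00783). mt-Co2 passed too (-0.22, adjusted p = 0.0327) but was at 0.052 with the trend of genes of at least 10 CPM removed. The count of calls was 6 without HG replicate 1, 8 without HG replicate 3, 7 without HG+CD200Fc replicate 2 and 11 without HG+CD200Fc replicate 3.

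The difference between the glucose effects with and without CD200Fc, tested as an interaction, passed for 1 member, Cox6a2, where 7.20% of all genes passed (3.62% higher and 3.58% lower). The next smallest p were those of Cyc1, Ndufv3, Cox5a and Ndufa8, with adjusted p from 0.0800 for Cyc1 to 0.112 for Ndufa8, and did not pass. Cox6a2 (chr7:128205435-128206387, minus strand, GRCm38) is the heart and muscle isoform of a complex IV subunit, of which Cox6a1 is the common form. It had 2.12, 2.07 and 1.67 CPM in NG and 3.76, 4.09 and 3.86 CPM in HG. With CD200Fc it had 2.30, 1.53 and 2.33 CPM at normal glucose and 2.21, 1.64 and 1.28 CPM at high glucose.

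The 3 HG libraries stood above all 9 others. Cox6a2 rose in HG against NG (1.00 ± 0.24, SE, adjusted p = 0.00311) and fell with CD200Fc at high glucose (-1.18 ± 0.25, SE, adjusted p = 0.00102), and neither call was lost in 24 alternative settings. The interaction was -1.25 ± 0.35 (SE, adjusted p = 0.0267) and was lost in 7 of 23 settings, 6 of which left out 1 library. Counts were small, 28 to 110 per library. Itgad, on the opposite strand, shares exon bases with Cox6a2 and was not called in any comparison (mean 0.261 ± 0.0847 CPM in HG, SD, n = 3).

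The other 2 tested isoforms were lower with CD200Fc at high glucose and did not pass the test in HG against NG. Cox7a1, the muscle form of Cox7a, had 1.27, 1.96 and 1.30 CPM in NG, 2.36, 2.27 and 2.60 in HG and 0.934, 1.35 and 1.70 in HG+CD200Fc (-0.87 ± 0.29, SE, adjusted p = 0.0378 against HG); against NG the HG value was 0.67 (adjusted p = 0.0886). Cox7b2 had 0.787, 0.909 and 1.26 CPM in HG and 0.486, 0.193 and 0.458 in HG+CD200Fc (-1.34 ± 0.41, SE, adjusted p = 0.0229). In NG+CD200Fc it had 1.51, 0.941 and 1.37 CPM, so it was lower in HG+CD200Fc than in NG+CD200Fc too (-1.71), without overlap; its counts were 4 to 44 per library, and that call was lost in 3 of 23 settings, among them NG+CD200Fc replicate 3 or HG+CD200Fc replicate 2 left out. In HG+CD200Fc against HG, the common partners Cox6a1, Cox7a2 and Cox7b had -0.25, -0.14 and -0.22, of which Cox6a1 passed. Against HG, the Cox7a1 call was lost in 9 of 24 settings and the Cox7b2 call in 4.

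**Figure D5:**
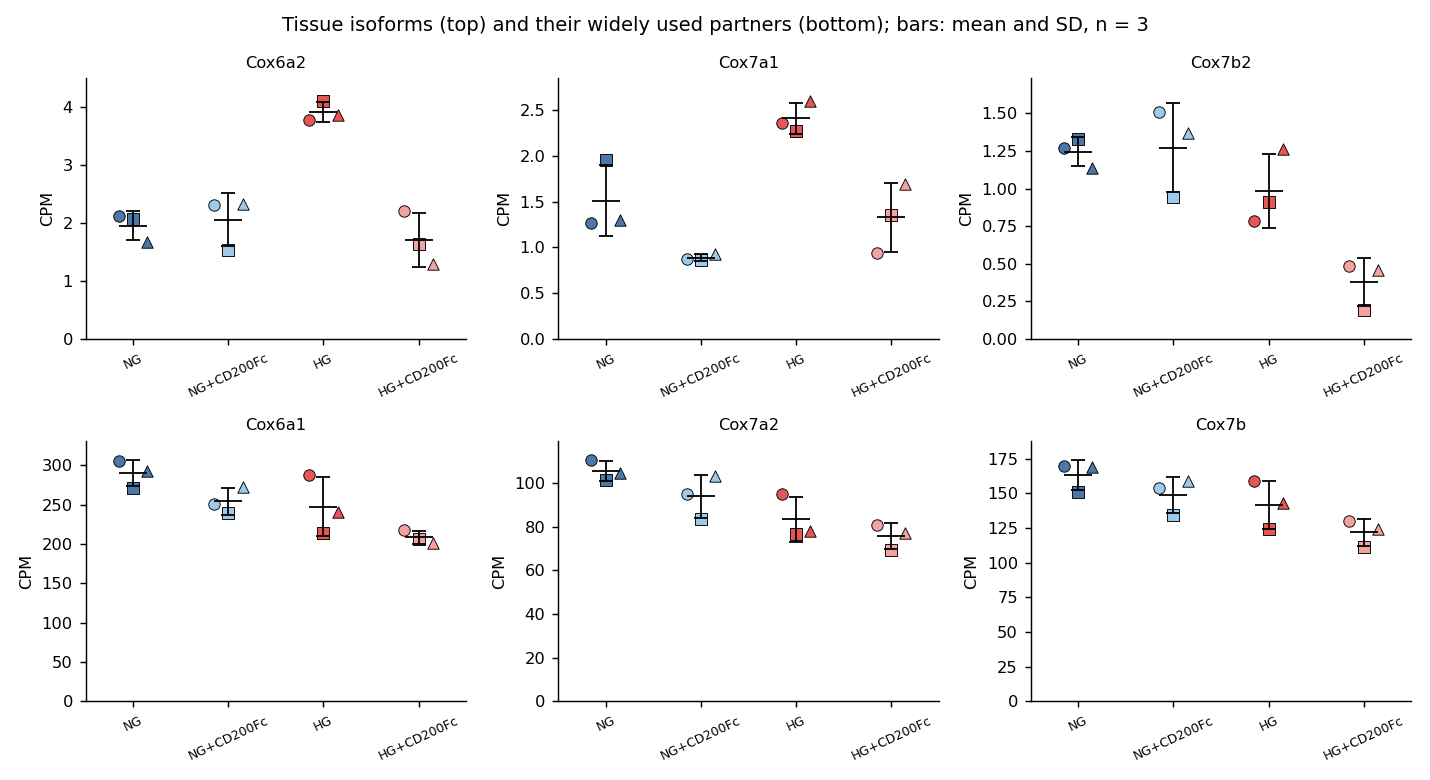
CPM (vertical axes) of the isoforms Cox6a2, Cox7a1 and Cox7b2 (top) and of their common partners Cox6a1, Cox7a2 and Cox7b (bottom) by group (horizontal axes); each point is 1 library, and bars are the mean and SD of 3. The HG libraries of Cox6a2 (3.76 to 4.09 CPM) lie above all libraries of the other groups (1.28 to 2.33 CPM).

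Genes that serve the respiratory chain were read from lists chosen with earlier results known, and their counts stand beside the 12.9% of all genes tested that were lower and the 11.7% that were higher in HG than in NG. Complex II, which feeds electrons from succinate, had 2 of 8 genes lower in HG than in NG, Sdhd (-0.31) and Sdhb (-0.27), with a list median of -0.036. Of the 16 carriers, porins and import genes 12 were lower and 1 higher, with a median of -0.24: the outer membrane import receptor Tomm20 had -0.48 (adjusted p = 1.91e-05), the import pore Tomm40 -0.33 and the ADP/ATP carrier Slc25a5 -0.34, while the inner membrane carrier Ucp2 rose (0.44, adjusted p = 2.75e-06). With CD200Fc at high glucose Tomm40 rose (0.38, adjusted p = 3.67e-05) and Ucp2 fell (-0.42, adjusted p = 6.32e-06).

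Assembly factors of complex IV had 8 of 20 tested genes lower and 1 higher: the copper carrier Cox17 was higher (0.71, adjusted p = 0.00167), and the copper-delivery protein Sco1 and the heme synthesis enzyme Cox10 were lower (-0.47 and -0.33). Assembly factors of complex I had 4 of 15 lower and 1 higher (Foxred1, 0.34). For complexes III and V 1 of 6 and 1 of 4 were lower, Uqcc2 (-0.69, adjusted p = 6.15e-04) and Atpaf2 (-0.26), where 12.9% of all genes were lower. Of the 17 electron carrier and ubiquinone synthesis genes 2 were higher and 2 lower, a share near the 24.6% of all genes that passed. Among them Coq8a, an ATPase-like protein needed for ubiquinone synthesis, had 3.94, 4.81 and 3.45 CPM in NG and 14.7, 12.4 and 11.8 CPM in HG (1.67 ± 0.18, SE, adjusted p = 1.03e-07) and fell with CD200Fc at high glucose (-1.35, adjusted p = 2.83e-06). In a separate list of isoform and hypoxia exchange genes, 2 of 6 tested genes were higher and 1 lower in HG against NG. Bnip3 of that list, a mitophagy receptor induced in hypoxia, was like Coq8a higher and then lower (1.17 and -1.71), with adjusted p = 2.50e-05 and 2.26e-07.

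Of the 11 tested transcriptional regulators of respiratory genes, 0 passed in HG against NG, and Nrf1, the factor that binds the NRF1 site shown above, had -0.16 (adjusted p = 0.118). With CD200Fc at high glucose 5 were higher, where 9.46% of all genes were: Gabpb2, Nrf1, Ppargc1b, Pprc1 and Yy1. Nrf1 had 0.28 and Ppargc1b, a coactivator of mitochondrial gene expression, 0.34. For mitochondrial DNA replication and transcription, 2 of 16 genes were lower in HG (Mgme1, -0.40, and Top1mt, -0.22), a share near the 12.9% of all genes, and Tfam, which packages mitochondrial DNA, had -0.24 and did not pass (adjusted p = 0.0513). For mitochondrial RNA processing it was 3 of 18 (Elac2, Tbrg4 and Ptcd2), also near that share, with -0.28 for Elac2, which cuts transfer RNAs from mitochondrial transcripts.

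The authors' deposited table gives a comparison of its own for 77 of the members, none of them mitochondrial. In the authors' deposited table, 44 of these were lower and 2 higher in HG against NG (39 lower in both that table and the fit above). Of the 15372 genes in the authors' deposited table, 31.8% were called in either direction and 15.9% as lower. The authors' deposited table lists 18 lower and 0 higher for HG with CD200Fc against HG (15 lower in both). There 22.6% of all genes in the authors' deposited table were called in either direction and 11.1% as lower. For NG with CD200Fc against NG the authors' deposited table lists 0. For HG with CD200Fc against NG, a pair that changes both factors, the authors' deposited table lists 64 lower and 0 higher. Of all genes in the authors' deposited table, 26.0% were called in either direction for this pair and 13.2% as lower.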

How the data were processed

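Per the labels' protocols, RNase H served to deplete ribosomal RNA, cDNA was primed with random hexamers, and 150-base read pairs were sequenced. Per the submitters' processing notes the tools were STAR, featureCounts (Subread), Salmon, bcl2fastq, limma and edgeR, with build GRCm38. Strand setting and annotation release: not given in the sources used here. The authors deposited whole-number counts per gene, and a merged table of log2 fold changes and p-values from the authors' own comparisons. The count table's 55774 lines held 287 repeats, which were dropped. Library totals were 21454087 to 31905649 counts, and reads carry no molecular identifiers.

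Counts were fitted with edgeR 4.0.16 (R 4.3.3; robust quasi-likelihood, filterByExpr, TMM) as 4 group means over all 12 libraries, which share 1 estimate of spread (biological coefficient of variation 0.0908). P-values were adjusted by Benjamini-Hochberg over 19182 genes in each of 5 contrasts; fold changes and SE are log2. CPM are TMM-scaled. limma 3.58.1 and DESeq2 1.42.0 served as alternatives. Exon lengths, overlaps and coordinates are from GENCODE M21. The fit was also run on simulated counts, drawn with 1 common spread for all genes and no relation to exon length. That run cannot show how the fit handles the length relation or a deviating library in these data.

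Members and lists were chosen with earlier results of these data known. Named were all mitochondrial members, the 3 largest and 3 smallest changes per complex in HG vs NG among nuclear members of at least 1 CPM, the 5 smallest p in each other contrast, tissue isoforms with their partners, the subunit c genes, and up to 4 genes per related list; other genes named were chosen after their values were seen. The trend of genes of at least 10 CPM was added after the data were seen.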

Additional observations from a re-analysis of the deposited data

Results flagged for a closer look

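Cox6a2 was the single member whose glucose effect differed with and without CD200Fc by a test of the difference itself. The difference of the effects was -1.25 (log2; SE 0.35, edgeR quasi-likelihood test, adjusted p = 0.0267), from 1.00 without CD200Fc to -0.26 with it. It was higher in 3 of 3 HG libraries than in any other library.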

How the results depend on the processing

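Of 690 summary values under the alternatives, 633 stayed close to the value reported and 57 moved. Close means within a set fold range for counts of calls, and within the SD between replicates for medians and summed levels. Leaving out 1 of 3 libraries shifts a mean by less than the SD of its group, so the sums could hardly move. The pooled 633 therefore says little about stability. Counts of calls moved in 3, 4, 1, 4 and 10 of 12 fits with 1 library left out, in the order of the contrasts below. Leaving out 1 library in turn gave 28 to 64 calls for glucose alone (HG vs NG), 5 to 46 for glucose with CD200Fc (NG+CD200Fc as the control), 0 to 1 for CD200Fc at normal glucose, 6 to 26 for CD200Fc at high glucose and 0 to 4 for the interaction. It gave nuclear medians of -0.39 to -0.20 for glucose alone, -0.24 to -0.051 for CD200Fc at high glucose and -0.073 to 0.14 for the interaction. Mitochondrial medians were -0.42 to -0.22 for glucose with CD200Fc, -0.23 to -0.038 for CD200Fc at high glucose and -0.27 to -0.049 for the interaction. The mitochondrial sum of complex V had log2 ratios of -0.72 to -0.37 and -0.58 to -0.22 in the same 2 pairs. With no filter on low counts there were 51, 3, 29 and 4 calls for glucose with CD200Fc, CD200Fc at normal glucose, CD200Fc at high glucose and the interaction. Removing the trend on length and GC of genes of at least 1 CPM gave 14, 10 and 4 calls for glucose with CD200Fc, CD200Fc at high glucose and the interaction, with mitochondrial medians of -0.094 and 0.058 in the first 2. With HG replicate 2 and NG+CD200Fc replicate 3 both left out there were 13, 4 and 37 calls for glucose with CD200Fc, CD200Fc at normal glucose and CD200Fc at high glucose. CD200Fc at normal glucose had 1 call with limma voom and 1 with only the groups compared, and the interaction had 2 with DESeq2 and 4 with voom.

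The trend of genes of at least 10 CPM, once removed, gave 8 calls for glucose with CD200Fc and 5 for the interaction. Its nuclear medians were -0.096, -0.091, -0.051 and -0.051, and its mitochondrial medians 0.16, 0.16, 0.17 and 0.18, for glucose alone, glucose with CD200Fc, CD200Fc at normal glucose and CD200Fc at high glucose. The GC content of mitochondrial genes was 31.9% to 41.1%, at the edge of the fitted range, where 5% of genes lie below 39.8%. Of the 99 member calls 14 turned positive under it: Ndufa4 (0.042), mt-Nd1 (0.075), mt-Nd4 (0.16), Cox7b (0.065), Cox7c (0.027), mt-Co1 (0.063) and mt-Co2 (0.095) for glucose with CD200Fc, mt-Nd1 (0.061), Ndufa2 (0.046), Ndufs5 (0.0093), Uqcrb (0.078) and Uqcrh (0.027) for glucose alone, and mt-Co2 (0.052) and Ndufa1 (0.0024) for CD200Fc at high glucose. The median over all genes moved under it too, from 0.021 to 0.087 for glucose alone and from -0.00055 to 0.041 for glucose with CD200Fc. For CD200Fc at high glucose it moved from -0.021 to 0.010. The 5 values listed for glucose alone lie below the all-gene median of 0.087. Over all genes the split of higher and lower calls was 2244 and 2476 for glucose alone and 892 and 701 for glucose with CD200Fc. Under the trend from 10 CPM it was 2800 and 2250, and 529 and 381. Under the same trend fitted from 1 CPM it was 1845 and 3536, and 401 and 628. The cause of these shifts was not tested.

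Replicate numbers gave no steady pairing of the libraries: of 18 same-number pairs 5 had correlated deviations over 0.1 (-0.069 to 0.18), and 2 of 12 libraries correlated best with their own number. Pairs with different numbers ran from -0.21 to 0.24, and the replicate 2 libraries among themselves from 0.0036 to 0.18. Whether libraries of the same number share an effect was not tested. With the replicate block there were 60, 46, 0, 26 and 3 calls in the 5 contrasts. Over all genes it gave 5258 calls for glucose alone and 2314 for glucose with CD200Fc, against 4720 and 1593 without it.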
